A study of Mus musculus with 30 samples.

Results

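Cycling B lineage cells of the mouse spleen are described here in single-cell RNA-seq libraries of red-cell-depleted splenocytes from Smc3-cKO and Smc3-WT mice, with 2 libraries per genotype. A cell was taken as cycling B lineage when 200 or more genes were detected, no more than 10% of its UMIs were mitochondrial (a UMI, or unique molecular identifier, stands for 1 captured RNA molecule), and it had at least 3 UMIs of the B cell genes Cd79a, Cd79b and Ms4a1 together, at least 3 UMIs of the cycle genes Mki67, Top2a, Cdk1, Ccnb2 and Birc5 together, fewer than 10 UMIs of Jchain, and at most 1 UMI of Cd3e, Cd3d and Cd3g together. This rule found 451 cells among the 46886 that passed the gene and mitochondrial limits, out of 53644 barcodes. Smc3-cKO replicates 1 and 2 held 117 and 72 of them, and Smc3-WT replicates 1 and 2 held 155 and 107. No barcode of a cycling B cell occurred in more than 1 library, while 36 to 61 barcodes of any kind were shared by each pair of libraries. Both genotypes are mouse spleen of the same labelled cell preparation, and the labels' protocol gives an age of 6 to 8 weeks for the Smc3-WT and Smc3-cKO mice whose dendritic cells were sorted, without a separate age for these libraries. The labels name neither the Cre line that deletes Smc3 in the Smc3-cKO mice nor the deleted part of the gene, and the study's title concerns conventional dendritic cells, so whether B cells lose Smc3 is not given. The labels also do not say that the libraries are from separate animals, so the p-values below measure the spread between libraries, which may be technical.

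B lymphocytes are mostly quiescent in the spleen, and those that divide include germinal centre B cells, activated B cells on their way to plasmablasts, marginal zone and B1 cells that renew themselves, and precursors. A cell that enters the cycle licenses its replication origins with the MCM helicase, makes nucleotides and histones as it copies its DNA, and then builds a mitotic spindle. Cohesin, the ring of SMC1A, SMC3, RAD21 and a STAG subunit, holds the copied sister chromatids together until they separate and also shapes chromatin loops, and condensin compacts chromosomes for mitosis.

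The libraries were unequal before any comparison of genotypes. In the cycling B cells the median was 10595 and 11711 UMIs per cell in the Smc3-cKO libraries, against 4902 and 9514 in the Smc3-WT libraries, so Smc3-WT replicate 1 was the shallowest. The summed counts behind each value below are 1380066 and 866371 UMIs in Smc3-cKO and 991436 and 1137521 in Smc3-WT. RNA of red cell precursors, whose 16-gene list includes haemoglobins, made up 15270 and 470 CPM of the cycling B counts in Smc3-cKO replicates 1 and 2 (CPM scales a gene's summed UMIs to the sum over all genes in the same cells of the same library), against 39030 and 2275 CPM in Smc3-WT. It was thus high in both replicates numbered 1 and low in both numbered 2, whatever the genotype. The neutrophil list went the same way, with 4435 and 21.9 CPM in Smc3-cKO and 6019 and 561 CPM in Smc3-WT. In the non-cycling B cells, defined by the same limits with no UMI of the 5 cycle genes, the erythroid list stood at 2456 and 183 CPM in Smc3-cKO and at 10550 and 691 CPM in Smc3-WT. At least 2 UMIs of erythroid genes other than haemoglobin were present in 50 and 17 of the cycling B cells in Smc3-cKO and in 88 and 26 in Smc3-WT, and these UMIs outnumbered those of the 3 B cell genes in 18 and 1 of the Smc3-cKO cells and in 55 and 6 of the Smc3-WT cells. The part of these RNAs in the results was not tested.

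The defining markers differed in how many of the cells they were found in. Of the cycle genes of the rule, Cdk1 had a UMI in 42.1% of the cells, Ccnb2 in 41.0% and Birc5 in 57.2%. Top2a, the topoisomerase that untangles replicated DNA, had a UMI in 91.1% of the 451 cells, and Mki67, the proliferation antigen of dividing nuclei, in 84.7%. Cd79a, a signalling chain of the B cell receptor, had one in 94.0%, and Ms4a1, which encodes CD20, in 95.1%, all 4 by the rule itself. Pclaf, a PCNA partner at replication forks, and Stmn1, a microtubule regulator, were not used by the rule. They had a UMI in 68.1% and 67.6% of the cells, but in 39.4% and 32.3% of those of Smc3-WT replicate 1 against 77.8% to 88.9% in each of the other libraries.

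How far free RNA of dividing cells could reach the rule was measured in T cells, taken as cells with at least 3 Cd3 UMIs and none of the 3 B cell genes. At least 1 UMI of a cycle gene was found in 12.8% and 5.55% of T cells in Smc3-cKO and in 25.6% and 6.87% in Smc3-WT. The corresponding shares of B lineage cells were 14.1% and 4.31% in Smc3-cKO and 25.3% and 5.94% in Smc3-WT, so single cycle UMIs were as common in the one type as in the other. At least 3 cycle UMIs were found in 1.40% and 1.25% of T cells in Smc3-cKO and in 3.08% and 1.18% in Smc3-WT. The median depth was 4723 and 3468 UMIs in the T cells and 4342 and 2662 in the B lineage cells of Smc3-cKO, against 3157 and 3664 in T cells and 2861 and 2744 in B lineage cells of Smc3-WT. T cells can divide too, which raises this share. They were also chosen to have no UMI of the B cell genes, which may favour cells with little free RNA. The share is therefore not a bound on the background of B lineage cells. The share of B lineage cells was above that of T cells in Smc3-cKO replicate 1 and Smc3-WT replicate 2. It was below in Smc3-cKO replicate 2 and Smc3-WT replicate 1. With every cell thinned to 2000 UMIs, the share with at least 3 cycle UMIs was 1.95% and 0.684% of B lineage cells and 0.792% and 0.625% of T cells in Smc3-cKO. In Smc3-WT it was 1.67% and 0.911% of B lineage cells and 2.39% and 0.846% of T cells. At matched depth the share of B lineage cells was thus below the T cell level in Smc3-WT replicate 1, near it in both replicates numbered 2, and above it in Smc3-cKO replicate 1.

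The cells differed in how many cycle UMIs they held. The median sum of the 5 genes was 16 and 13.5 UMIs in Smc3-cKO and 6 and 16 in Smc3-WT, and the highest was 205 and 88 in Smc3-cKO and 140 and 110 in Smc3-WT. The lowest allowed sum of 3 was held by 14 and 10 of the cells in Smc3-cKO and by 51 and 12 in Smc3-WT, or 32.9% of the cells of Smc3-WT replicate 1. Just outside the threshold, 78 and 31 B lineage cells in Smc3-cKO and 234 and 52 in Smc3-WT had a sum of 2. The spindle list described below was at 855 and 629 CPM in the Smc3-cKO cells with a sum of 3 and at 417 and 293 CPM in those with a sum of 2, and at 467 and 1168 CPM in the Smc3-WT cells with a sum of 3 and at 345 and 732 CPM in those with a sum of 2. Smc3-WT replicate 1 therefore held the most cells near the threshold.

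**Figure D1:**
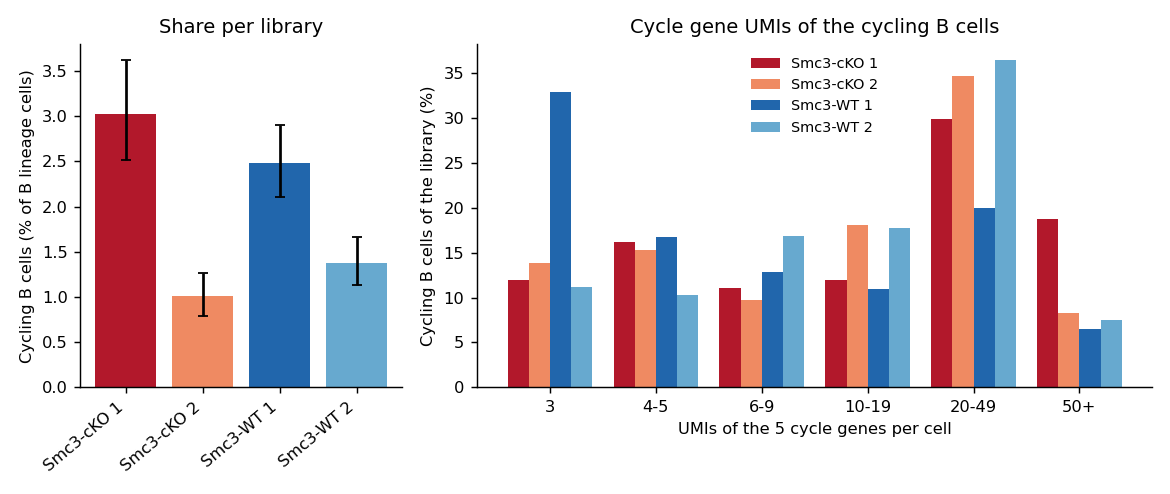
Left, cycling B cells as a percentage of B lineage cells in each library, with exact 95% binomial intervals for counting error. Right, the percentage of each library's cycling B cells by their summed UMIs of Mki67, Top2a, Cdk1, Ccnb2 and Birc5, where Smc3-WT replicate 1 has 32.9% of its cells at the lowest sum of 3.

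Cycling B cells made up 1.64% (95% Clopper-Pearson interval 1.36% to 1.96%) and 0.530% (0.415% to 0.668%) of all kept cells in Smc3-cKO, against 1.27% (1.08% to 1.48%) and 0.767% (0.629% to 0.926%) in Smc3-WT. The intervals cover counting error only. The mean was 1.09% ± 0.784 in Smc3-cKO and 1.02% ± 0.354 in Smc3-WT (SD, n = 2 each), and the libraries of the genotypes overlapped, with the highest and the lowest share both in Smc3-cKO. A two-sided exact permutation test gave p = 1.0, in a design that cannot go below 0.33. Of the 25057 B lineage cells, those in cycle were 3.03% and 1.01% in Smc3-cKO and 2.48% and 1.38% in Smc3-WT, again with overlapping libraries (exact permutation p = 1.0). After each cell was thinned to 2000 UMIs, which left out 835 and 2601 shallower cells in Smc3-cKO and 2229 and 2880 in Smc3-WT, the rule found 54 and 35 cells in Smc3-cKO and 71 and 52 in Smc3-WT, or 1.66% and 0.656% of B lineage cells in Smc3-cKO against 1.39% and 0.851% in Smc3-WT. A difference between genotypes was not detectable with these libraries.

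Cycling and non-cycling B cells of the same library are set side by side next. The rule selected the cells on their counts, so these ratios are a description with no test. There were 3322 and 6854 non-cycling B cells in Smc3-cKO and 4666 and 7318 in Smc3-WT. Their median depth was 4254 and 2637 UMIs per cell in Smc3-cKO and 2820 and 2716 in Smc3-WT. The cycling cells were deeper in every library. In them a lower CPM is a lower share of the counts and need not be fewer UMIs per cell. Ratios are on the log2 scale of CPM with 5 CPM added, given as the mean ± SD over the 4 libraries. Of 6985 genes with at least 20 CPM in the cycling cells, 2074 (29.7%) were higher in cycling than in non-cycling B cells in all 4 libraries and 2079 (29.8%) were lower in all 4.

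The replication genes stood above their non-cycling level throughout. All 20 genes of origin licensing and firing were higher in cycling cells in every library, with a median log2 ratio of 2.37, and so were all 21 genes of the fork and of nucleotide synthesis, with a median of 2.59. In cycling cells of Smc3-WT replicate 1 the licensing genes summed to 1284 CPM and the fork genes to 2585 CPM. Without cells with at least 2 UMIs of another lineage's list, these sums were 591 and 1624 CPM. The non-cycling cells of that library then had 242 and 422 CPM. Mcm6, a subunit of the MCM helicase, had 191 and 186 CPM in cycling cells of Smc3-cKO and 128 and 184 CPM in those of Smc3-WT, against 27.9 and 25.7 CPM in non-cycling cells of Smc3-cKO and 29.5 and 22.5 CPM in those of Smc3-WT. Pcna, the sliding clamp of the replication fork, had 328 and 319 CPM in cycling cells of Smc3-cKO and 204 and 261 CPM in those of Smc3-WT, a log2 ratio of 2.47 ± 0.31 over non-cycling cells. Rrm2, the cycle-regulated subunit of ribonucleotide reductase, had a log2 ratio of 4.36 ± 0.62, with 223 and 155 CPM in Smc3-cKO and 194 and 173 CPM in Smc3-WT. Pclaf had 444 and 847 CPM in Smc3-cKO and 228 and 594 CPM in Smc3-WT and the highest log2 ratio outside the rule genes, 5.66 ± 1.49. It varied more between the libraries than Pcna or Rrm2 did, with Smc3-WT replicate 1 the lowest.

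The replication-dependent histones were also high. Of 21 listed, 16 had at least 20 CPM, and all 16 were higher in cycling cells in all 4 libraries, with a median log2 ratio of 2.88. In Smc3-WT replicate 1 the list summed to 1886 CPM in cycling and 322 CPM in non-cycling cells. Without cells with at least 2 UMIs of another lineage's list, these sums were 443 and 324 CPM, with 26 cycling cells left. The cycling cells then had 2112 and 2755 CPM in Smc3-cKO and 4318 CPM in Smc3-WT replicate 2. Hist1h1b, a linker histone made in S phase, had 301 and 375 CPM in cycling cells of Smc3-cKO and 379 and 744 CPM in those of Smc3-WT. Hist1h2ap, a core histone of the H2A family, had 387 and 376 CPM in Smc3-cKO and 177 and 513 CPM in Smc3-WT. Histone genes of this cluster are near-identical copies, so reads of one copy may be counted for another or lost. The assay also primes on poly(A) tails, which most mRNAs of these genes lack, so their level here is not that of the whole transcript pool.

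The mitotic genes had the highest list median of the cycle lists. The cycle genes of the rule include genes of G2 and mitosis, and the non-cycling cells held no UMI of them. The order of the lists therefore depends on the rule. All 39 genes of the spindle and kinetochore list were higher in cycling cells in all 4 libraries, with a median log2 ratio of 3.67. Kif11, the motor that separates spindle poles, had 401 and 334 CPM in Smc3-cKO and 340 and 321 CPM in Smc3-WT, a log2 ratio of 5.43 ± 0.57. Cenpf, a kinetochore protein of late G2 and mitosis, had 306 and 211 CPM in Smc3-cKO and 290 and 280 CPM in Smc3-WT, with a log2 ratio of 5.13 ± 0.62. The 20 highest ratios, with Mki67, Top2a and Birc5 of the rule among them, included Tpx2, Kif15, Kif4, Nusap1, Cenpe, Hmmr, Anln and Prc1, which act on spindle microtubules or in cytokinesis, Neil3, a DNA glycosylase, and Diaph3, a formin. Slc25a21, a mitochondrial carrier, was unlike the rest of these 20, with 835 and 38.1 CPM in Smc3-cKO and 1539 and 636 CPM in Smc3-WT, low in the 1 library with the least erythroid RNA.

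Among the cycle regulators, the cyclins of S and G2 phase had larger ratios than the D-type cyclins of G1. This order depends on the rule as well. Ccna2, the cyclin of S phase and G2, had a log2 ratio of 4.22 ± 0.68 and Ccne1, the cyclin of S phase entry, 2.68 ± 0.34. Ccnd2, a D-type cyclin, was at 0.07 ± 0.63 and Ccnd3, the D-type cyclin of dividing germinal centre B cells, at -1.31 ± 0.45, below its non-cycling level in all 4 libraries. Cdkn2c, which inhibits CDK4 and CDK6, had a ratio of 2.49 ± 0.34. Of the transcription factors of the cycle, E2f7 and E2f8, the repressors of the E2F family, had ratios of 3.76 ± 0.26 and 3.98 ± 0.36, Mybl2, the S phase partner of the DREAM and MuvB complex, 3.17 ± 0.13, and Foxm1, the activator of G2 genes, 2.24 ± 0.42. Myc was at 0.32 ± 0.70, with 32.6 and 63.5 CPM in cycling cells of Smc3-cKO and 6.05 and 53.6 CPM in those of Smc3-WT, the lowest in Smc3-WT replicate 1.

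Promoters of genes of G2 and mitosis are known for CCAAT boxes and cell cycle homology regions, and those of 3 of the 5 rule genes are shown from the RefSeq table. The rule selected the cells on these genes, and whether single cells express them together was not tested. The windows are the 120 bases before the transcript start that the promoter table uses, on GRCm38.p6, which for Top2a lies slightly inside the outer end of the gene, and capitals mark CCAAT, the box bound by NF-Y, and TTTGAA, the core of the cell cycle homology region bound by MuvB, each on either strand (ATTGG and TTCAAA on the other). The motifs do not overlap each other in these windows. Top2a lies on chr11:99024190-99024309, Cdk1 on chr10:69352913-69353032 and Ccnb2 on chr9:70421555-70421674, all on the minus strand.
Top2a: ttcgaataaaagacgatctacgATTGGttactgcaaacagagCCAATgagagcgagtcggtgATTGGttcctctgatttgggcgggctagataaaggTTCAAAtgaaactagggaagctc
Cdk1: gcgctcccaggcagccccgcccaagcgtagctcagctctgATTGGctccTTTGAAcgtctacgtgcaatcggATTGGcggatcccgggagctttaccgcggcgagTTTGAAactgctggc
Ccnb2: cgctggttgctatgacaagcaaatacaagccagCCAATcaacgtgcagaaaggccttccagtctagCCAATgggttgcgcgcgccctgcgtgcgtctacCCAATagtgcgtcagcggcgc
Top2a holds 3 CCAAT and 1 TTTGAA, Cdk1 holds 2 of each, and Ccnb2 holds 3 CCAAT and no TTTGAA in this window. Over 250 bases before the start, CCAAT was present for 25 (73.5%) and TTTGAA for 10 (29.4%) of the 34 spindle and kinetochore genes with a window, of 39 listed. Over all 27025 genes of the table the shares were 37.5% and 18.3%, and over the 36 replication genes with a window 58.3% and 16.7%. At least 2 CCAAT were found for 17 of these 34 spindle and kinetochore genes and for 11.5% of all genes. A match of these letters is not a bound site, and binding was not measured in these cells.

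Condensin and cohesin genes differed in how far they followed the cycle. All 8 condensin genes were higher in cycling cells in all 4 libraries, with a median log2 ratio of 3.05, and Smc2, an ATPase of condensin, had 262 and 193 CPM in Smc3-cKO and 256 and 231 CPM in Smc3-WT with a ratio of 2.97 ± 0.31. The 17 cohesin genes and cofactors with at least 20 CPM had a median of 0.42, and 12 of them were higher and 4 lower in all 4 libraries. Esco2, the acetyltransferase that acts on SMC3 in S phase, had 105 and 99.3 CPM in Smc3-cKO and 98.9 and 80.9 CPM in Smc3-WT and a ratio of 4.03 ± 0.39. Sgo1, which protects centromeric cohesion, had a ratio of 3.64 ± 0.35, and Espl1, the separase that opens the ring, 3.16 ± 0.29. Of the ring itself, Rad21 was at 1.29 ± 0.24 and Smc1a at 1.10 ± 0.13, while Stag2 was at -0.02 ± 0.18 and the loader Nipbl at -0.38 ± 0.24.

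Smc3, the gene named in the genotypes, on chromosome 19 (53600396 to 53645831, GRCm38.p6), had 209 and 202 CPM in cycling B cells of Smc3-cKO and 186 and 198 CPM in those of Smc3-WT. The Smc3-cKO libraries lay above the Smc3-WT libraries by less than their standard error, at a log2 fold change of 0.05 (SE 0.25, edgeR quasi-likelihood F test, adjusted p = 0.9997). In non-cycling B cells it had 96.5 and 110 CPM in Smc3-cKO and 110 and 106 CPM in Smc3-WT, so its log2 ratio in cycling cells was 0.88 ± 0.14. Because the deleted part is not given and the assay reads the 3′ end, these counts do not check whether the gene is deleted in the cells.

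**Figure D2:**
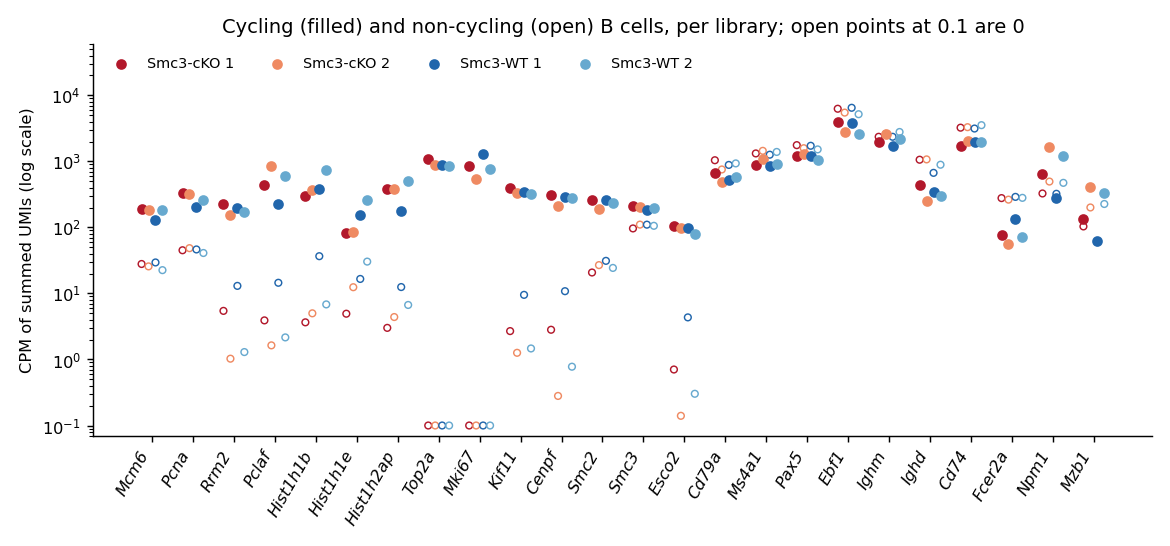
CPM of summed UMIs on a log scale for 24 genes in the cycling (filled points) and non-cycling (open points) B cells of each library, with levels of 0 drawn at 0.1. Cycle genes lie above and Cd79a, Ebf1, Ighd and Fcer2a below their non-cycling level in all 4 libraries.

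B lineage genes mostly made up a lower share of the counts in the cycling cells. Of 17 B cell transcription factors, 13 were lower in all 4 libraries and 1 was higher, with a median log2 ratio of -0.59. Ebf1, which specifies the lineage, had 3937 and 2757 CPM in cycling cells of Smc3-cKO and 3852 and 2573 CPM in those of Smc3-WT, a ratio of -0.86 ± 0.17, and Pax5, which maintains it, was at -0.47 ± 0.11. Bach2, which holds B cells back from plasma cell fate, was at -1.23 ± 0.57. Of 16 B cell receptor signalling genes 14 were lower in all 4 libraries, with a median of -0.58, and all 10 MHC class II genes were lower, with a median of -0.76, including Cd74, the invariant chain, at -0.77 ± 0.12. Without cells with at least 2 UMIs of another lineage's list, the transcription factors summed to 17590 and 12780 CPM in cycling cells and 24700 and 22270 CPM in non-cycling cells of Smc3-cKO. In Smc3-WT they then summed to 23450 and 12520 CPM in cycling cells and 25690 and 21390 CPM in non-cycling cells, so the difference was small in Smc3-WT replicate 1, where 26 cycling cells remained. With all cells it was 15060 CPM in cycling and 24000 CPM in non-cycling cells of that library. The MHC class II sums without these cells were 3902 and 4245 CPM in cycling and 7048 and 7601 CPM in non-cycling cells of Smc3-cKO, and 5255 and 4393 CPM in cycling and 6725 and 8170 CPM in non-cycling cells of Smc3-WT. They stayed lower in the cycling cells of all 4 libraries. With all cells, the median for MHC class II was -0.71 in Smc3-cKO replicate 2, which had the least erythroid RNA, and between -0.90 and -0.59 in the other libraries.

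Markers of resting follicular cells had the lowest median of the B lineage lists, -1.11, and 7 of 8 were lower in all 4 libraries. Fcer2a, which encodes CD23, had 77.5 and 56.6 CPM in cycling cells of Smc3-cKO and 134 and 71.2 CPM in those of Smc3-WT, against 278 and 264 CPM in non-cycling cells of Smc3-cKO and 290 and 281 CPM in those of Smc3-WT, a log2 ratio of -1.72 ± 0.45. Ighd, the heavy chain of IgD, was at -1.46 ± 0.48 and Cd55, a complement regulator, at -1.60 ± 0.30. Cd24a, a surface protein of immature and dividing B cells, and Myb, a factor of B cell precursors, went the other way, at 1.49 ± 0.44 and 1.38 ± 0.57. Cd24a is also abundant in red cell precursors, and it had 765 and 503 CPM in Smc3-cKO and 682 and 491 CPM in Smc3-WT, higher in both libraries rich in erythroid RNA.

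Growth genes separated the libraries. The 22 genes of ribosome biogenesis summed to 3088 and 6460 CPM in cycling cells of Smc3-cKO and to 1595 and 5179 CPM in those of Smc3-WT, and the median log2 ratio over non-cycling cells was 0.68 and 1.41 in Smc3-cKO and 0.08 and 1.12 in Smc3-WT. Npm1, a nucleolar chaperone, had 640 and 1674 CPM in Smc3-cKO and 278 and 1195 CPM in Smc3-WT. The glycolysis genes had the same order, with medians of 0.81 and 1.57 in Smc3-cKO and 0.17 and 1.13 in Smc3-WT. Both lists were lowest in Smc3-WT replicate 1 and highest in Smc3-cKO replicate 2, opposite to the order of erythroid RNA. Both were also summed without cells with at least 2 UMIs of another lineage's list. In Smc3-WT replicate 1 ribosome biogenesis then had 999 CPM in cycling and 1512 CPM in non-cycling cells, and glycolysis 339 and 354 CPM. In each other library both sums stayed higher in the cycling cells.

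**Figure D3:**
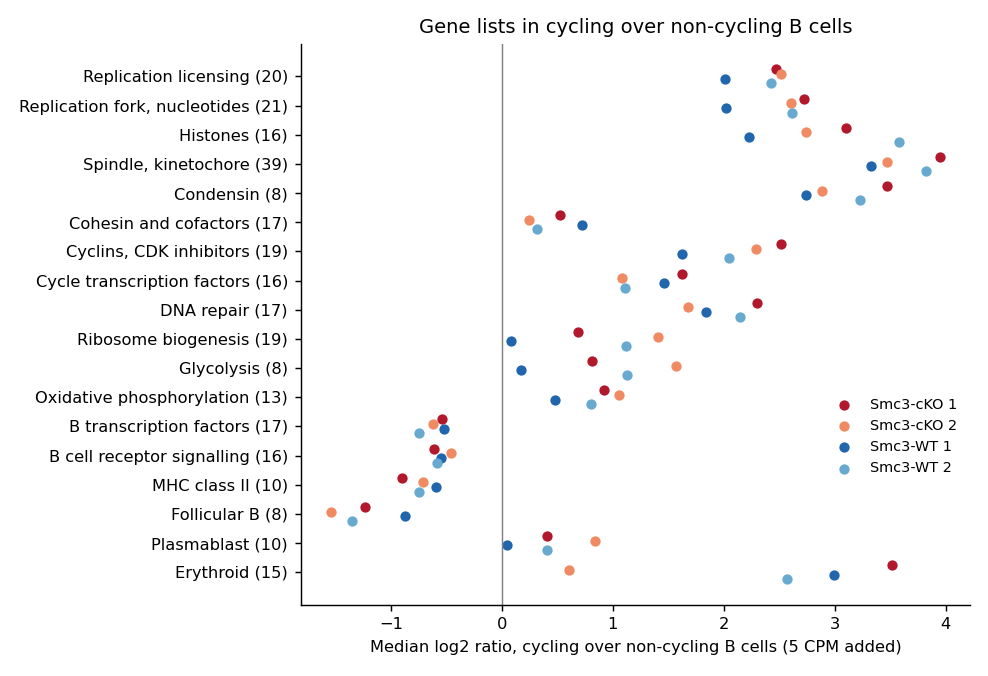
Median log2 ratio of cycling over non-cycling B cells for each gene list (number of genes with at least 20 CPM in parentheses), 1 point per library. Replication, spindle and condensin lists lie above 2 in every library, and MHC class II and follicular lists below 0.

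Genes of replication and of the spindle were both counted in the cells of all libraries, and no phase was assigned to a cell. In Smc3-WT replicate 1 the median cell had 9 UMIs of the replication lists and 12 of the spindle list. The replication lists summed to 4998 and 5971 CPM in Smc3-cKO and to 3869 and 5529 CPM in Smc3-WT, and the spindle list to 6321 and 4497 CPM in Smc3-cKO and to 5289 and 5206 CPM in Smc3-WT. More UMIs of the replication lists than of the spindle list were found in 46.2% and 65.3% of the cells in Smc3-cKO and in 53.6% and 52.3% in Smc3-WT. Smc3-cKO held both the highest and the lowest share, so the genotypes overlapped. These shares read free RNA as well as the cell's own.

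Clustering of the 451 cells gave 14 clusters, each named only where markers of a type were among its genes. To count, a marker needed 20 CPM or more within the cluster and a log2 ratio of 1 or more over the remaining clusters (5 CPM added). The cells were clustered on these counts, so the genes describe the clusters and are not tested. The clearest was a germinal centre B-like cluster of 15 cells, in which all 12 listed markers counted and 7 were among the 10 leading genes. Mybl1, a factor of dividing germinal centre cells, had 1240 CPM there and 29.3 CPM in the other clusters. Smc3-cKO replicates 1 and 2 gave 5 and 4 of these cells, and Smc3-WT replicates 1 and 2 gave 4 and 2.

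A precursor B-like cluster of 9 cells had 11 of 13 markers, among them Dntt, the terminal transferase that adds bases to V(D)J joints, Vpreb1 and Igll1, the surrogate light chain genes, and Il7r. Vpreb1 had 203 CPM and Igll1 174 CPM in these cells, while Ms4a1 was at 57.9 CPM and Cd74 at 159 CPM, below their level in the germinal centre B-like cells (1386 and 3448 CPM). Of the 9 cells 7 were from Smc3-cKO replicate 1, none from Smc3-cKO replicate 2, and 1 from each Smc3-WT library. A marginal zone B-like cluster of 22 cells had 5 of 7 markers, with Cr2, the complement receptor CD21, Cd1d1 and S1pr3, a receptor that keeps these cells in the marginal zone. Siglech, a gene of the dendritic cell list, was also among its leading genes. It held 9 and 5 cells of Smc3-cKO and 0 and 8 of Smc3-WT.

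The largest cluster was follicular B-like, with 73 cells and 4 of 8 markers, among them Fcer2a, Ighd and Cd55. It was the least cycling by counts, with a median cycle sum of 3 and 583 CPM of the spindle list, and 50 of its cells were from Smc3-WT replicate 1, against 12 and 7 from Smc3-cKO and 4 from Smc3-WT replicate 2. One unnamed cluster of 45 cells led by Ifi27l2a, Cep55, H2afx and Cenpf had the highest spindle level, 10670 CPM, with 2645 CPM of the replication lists. Another of 43 cells, led by Srm, Hspd1 and Mir155hg, had 7114 CPM of the replication lists and 2807 CPM of the spindle list, with 11 and 19 cells of Smc3-cKO and 2 and 11 of Smc3-WT. A further unnamed cluster, also of 45 cells, had 7 of 15 plasmablast markers, none of them leading, with Xbp1, the factor of the secretory programme, at 124 CPM and Mzb1, a chaperone of immunoglobulin assembly, at 539 CPM. It held 12 and 12 cells of Smc3-cKO and 2 and 19 of Smc3-WT.

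Of the 14 clusters, 4 had at least 3 markers of another lineage. They held 117 of the 451 cells (25.9%), 26 and 3 of them from Smc3-cKO and 71 and 17 from Smc3-WT, or 22.2% and 4.17% of the cells in Smc3-cKO and 45.8% and 15.9% in Smc3-WT. One of 29 cells had all 16 erythroid markers, with Car1, Klf1 and Gata1 leading, and the highest median cycle sum, 70 UMIs. One of 35 cells, 31 of them from Smc3-WT replicate 1, had 14 erythroid markers. One of 42 cells was led by the neutrophil genes Ngp, Camp and S100a9 and also had NK, macrophage and dendritic cell markers. One of 11 cells was wholly from Smc3-WT replicate 1. It had a mixture of 11 erythroid, 8 T cell, 6 dendritic cell, 4 monocyte or macrophage and 3 NK markers. The 3 B cell genes were at 884 CPM in these 4 clusters and at 2407 CPM in the other 10. They were lowest in the cluster of 29 cells, at 452 CPM, and highest in that of 11 cells, at 1687 CPM. The rule required at least 3 of their UMIs in every cell, so a level above 0 was fixed in advance. For these 117 cells the label of B lineage goes against part of their leading genes, and doublets, free RNA and another identity cannot be told apart. Scrublet, a doublet caller, marked 5 and 2 of the cycling B cells in Smc3-cKO and 6 and 1 in Smc3-WT. RNA of other lineages was not confined to these 4 clusters. At least 2 UMIs of another lineage's list, haemoglobins aside, were held by 76 and 31 cells (65.0% and 43.1%) in Smc3-cKO. In Smc3-WT they were held by 129 and 46 cells (83.2% and 43.0%). The cells without them numbered 41 and 41 in Smc3-cKO and 26 and 61 in Smc3-WT.

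**Figure D4:**
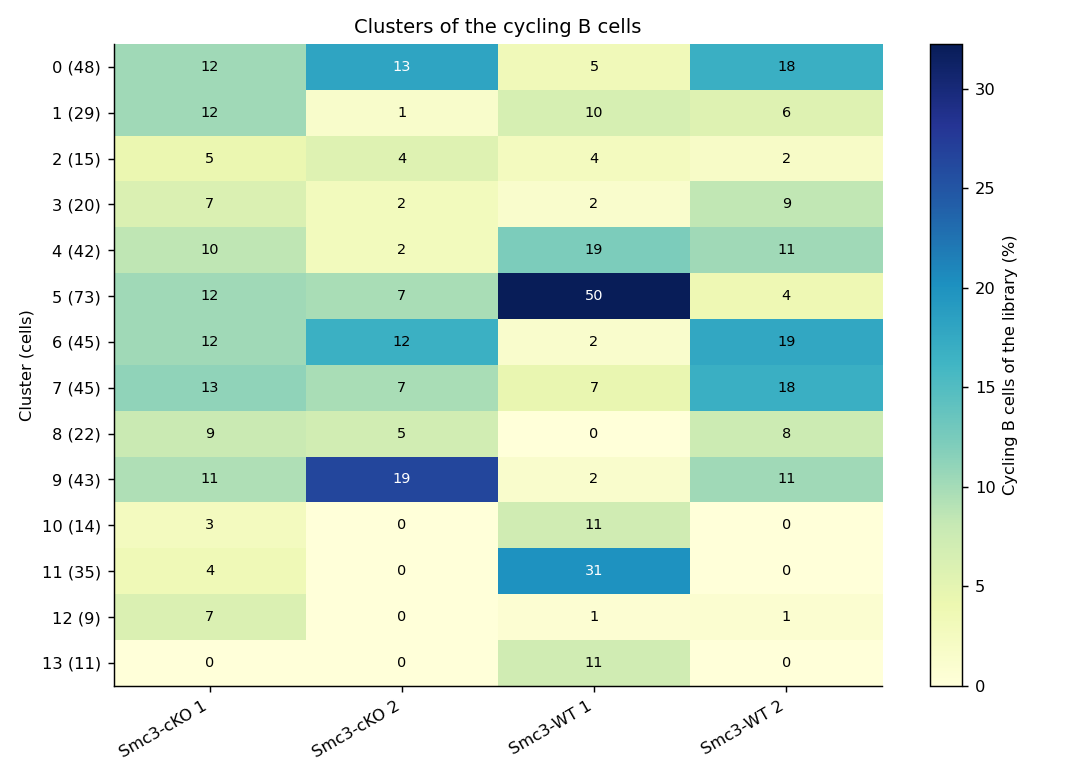
Number (digits) and percentage (colour) of each library's cycling B cells in the 14 clusters, numbered from 0, with the number of cells of each in parentheses. Smc3-WT replicate 1 has 50 cells in cluster 5 and 31 in cluster 11, which hold 4 and 0 cells of Smc3-WT replicate 2.

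Heavy chain use was nearly all IgM. Among cells with at least 3 UMIs of their most abundant heavy chain constant gene, Ighm led in 94.7% and 98.6% in Smc3-cKO and in 93.8% and 97.1% in Smc3-WT, against 79.0% and 83.7% of the non-cycling B cells in Smc3-cKO and 92.3% and 88.8% of those in Smc3-WT. Ighd led in 5 and 0 cycling cells of Smc3-cKO and in 7 and 1 of Smc3-WT, an Ighg gene in 1 and 1 of Smc3-cKO and in 1 and 2 of Smc3-WT, and Igha in none. The genotypes overlapped.

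Levels in the cycling B cells were compared between genotypes on counts summed per library. With 2 libraries each, edgeR's quasi-likelihood F test with Benjamini-Hochberg adjustment over 9106 genes called 0 genes higher (0.0%) and 0 lower (0.0%) at an adjusted p under 0.05, and 91 genes (0.999%) had an unadjusted p under 0.05. DESeq2 called 0 higher and 1 lower. That gene, Adam23, a membrane protein of the ADAM family, was named after its values were seen and had 0 and 2.31 CPM in Smc3-cKO and 106 and 21.98 CPM in Smc3-WT (DESeq2 adjusted p = 0.0465). Without overlap between the libraries of the genotypes, 1263 genes (13.9%) were higher and 798 (8.76%) lower in Smc3-cKO. Without the filter on low counts 6 genes rose and 91 fell. With the replicate number as a block, which the labels do not describe as a batch, 8 rose and 169 fell. In the edgeR test with the filter and without the block, none of the gene lists had a member that passed. From these sums alone, fewer cells of a type and less RNA per cell cannot be told apart.

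The cycle lists were set beside a median of -0.00463 over all genes on the log2 scale, and their own medians moved with the libraries and cells used. The 20 licensing genes had a median log2 fold change of 0.16, the 21 fork genes 0.13, the 39 spindle genes 0.02, the 8 condensin genes -0.11 and the 18 cohesin genes -0.05, none of their members passing the test. With 1 library left out the medians ranged between -0.03 and 0.41 for licensing, -0.02 and 0.49 for fork, -0.20 and 0.18 for spindle, -0.23 and 0.07 for condensin and -0.14 and 0.10 for cohesin genes. The highest for licensing and fork genes came without Smc3-WT replicate 2, and the lowest for spindle and condensin genes without Smc3-cKO replicate 1. Without cells with erythroid markers they were 0.44 for licensing, 0.42 for fork, 0.14 for spindle, 0.22 for condensin and 0.07 for cohesin genes. Of the 20 licensing genes, 4 were higher and 1 was lower in Smc3-cKO without overlap, and of the 39 spindle genes 3 were higher and 2 lower, beside 13.9% higher and 8.76% lower over all genes, so neither count stood out from this background. Top2a, on chromosome 11 (98992947 to 99024199, GRCm38.p6), had 1106 and 867 CPM in Smc3-cKO and 885 and 839 CPM in Smc3-WT, overlapping, with a log2 fold change of 0.14 (SE 0.36). Mki67, on chromosome 7 (135689784 to 135716450), had 858 and 540 CPM in Smc3-cKO and 1278 and 772 CPM in Smc3-WT, also overlapping, with a log2 fold change of -0.61 (SE 0.45).

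Histones were the cycle list farthest from 0. Of 20 tested, 17 had a log2 fold change below 0 and 3 above, with a median of -0.79, and 7 of the 20 were lower in Smc3-cKO without overlap, against 8.76% of all genes, though none passed the test. Hist1h1e, a linker histone, had 81.2 and 86.6 CPM in Smc3-cKO and 152 and 260 CPM in Smc3-WT, a log2 fold change of -1.35 (SE 0.35, edgeR unadjusted p = 0.0102, adjusted p = 0.9997). Hist1h2ab had 25.4 and 23.1 CPM in Smc3-cKO and 41.4 and 88.8 CPM in Smc3-WT, a log2 fold change of -1.48 (SE 0.46). The median was -0.07 without Smc3-WT replicate 2 and between -1.23 and -0.64 when another library was left out, so its size rested on that library. It was -0.55 without cells with erythroid markers. In Smc3-WT replicate 2 the list summed to 4522 CPM, against 2372 and 2931 CPM in Smc3-cKO and 1886 CPM in Smc3-WT replicate 1, and the sums overlapped.

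Other lists moved with single libraries. For ribosome biogenesis 21 of 22 genes lay above 0, with a median log2 fold change of 0.45, and for glycolysis 9 of 11, with a median of 0.61, and none passed the test. Without Smc3-WT replicate 1, the low library for both, the medians were -0.18 for ribosome biogenesis and 0.07 for glycolysis, and without Smc3-cKO replicate 2 they were -0.19 and -0.11. Without Smc3-WT replicate 2 they were 1.55 and 1.42, and without Smc3-cKO replicate 1 0.97 and 0.96. The plasmablast list had 10 of 11 genes above 0 with a median of 0.56, and 0.05 to 1.06 with 1 library left out, lowest without Smc3-cKO replicate 2. All 16 erythroid genes lay below 0 with a median of -1.31, which was 0.59 without Smc3-WT replicate 1 and -5.37 without Smc3-cKO replicate 1. All 10 MHC class II genes lay below 0, but with a median of -0.15 (0.04 without Smc3-cKO replicate 1), and the libraries of the genotypes overlapped for each of them.

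**Figure D5:**
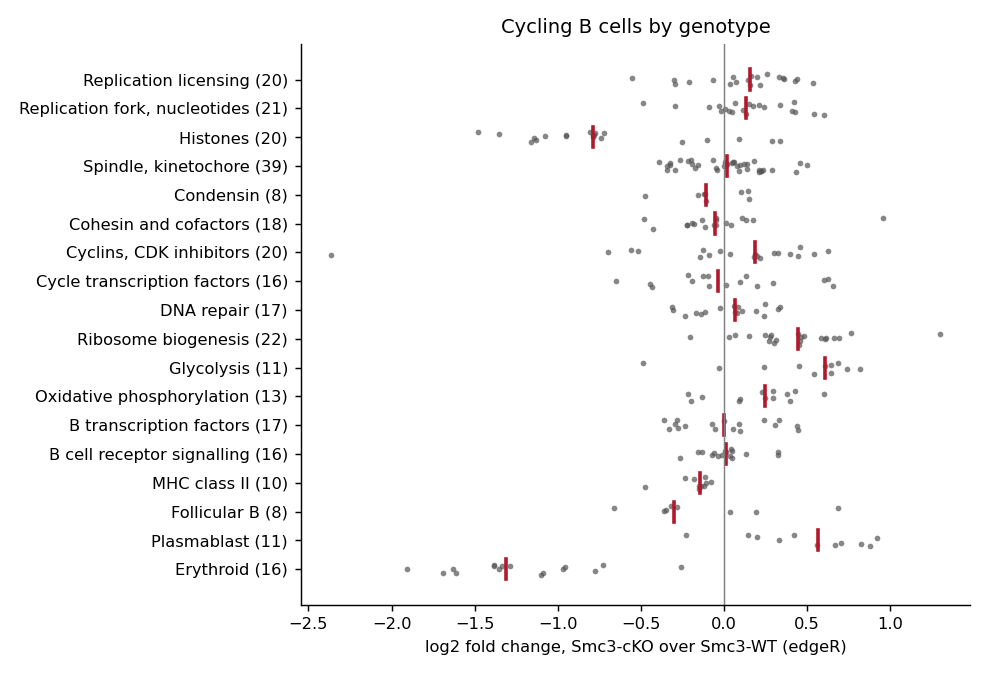
log2 fold changes of Smc3-cKO over Smc3-WT in cycling B cells for the genes of each list (points; number tested in parentheses) with the list's median (red bars). No point passed the test. Histone and erythroid medians lie at -0.79 and -1.31, and plasmablast and glycolysis medians at 0.56 and 0.61. The follicular B median lies at -0.30. Those of the spindle, B transcription factor and B cell receptor signalling lists lie close to 0.

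The genes with the smallest p are given as such. None of them passed in the edgeR test with the filter and without the block, though some passed under other settings, as given below. Plcb4, a phospholipase C, on chromosome 2 (135658603 to 136014602), had 105 and 50.8 CPM in Smc3-cKO and 17.2 and 11.4 CPM in Smc3-WT (log2 fold change 2.39, SE 0.48), and its groups did not overlap. In non-cycling B cells it had 94.8 and 56.1 CPM in Smc3-cKO and 6.54 and 3.89 CPM in Smc3-WT, again without overlap. Cdk2ap1, which binds CDK2, had 59.4 and 69.3 CPM in Smc3-cKO and 22.2 and 33.4 CPM in Smc3-WT (log2 fold change 1.15, SE 0.35). On the other side, Ccser1, on chromosome 6 (61179960 to 62382863), had 2.90 and 4.62 CPM in Smc3-cKO and 50.4 and 32.5 CPM in Smc3-WT (log2 fold change -3.52, SE 0.54). Slit3, a secreted guidance cue, had 7.97 and 9.23 CPM in Smc3-cKO and 33.3 and 79.1 CPM in Smc3-WT, and Nr3c2, the mineralocorticoid receptor, 0 and 1.15 CPM in Smc3-cKO and 22.2 and 13.2 CPM in Smc3-WT. The remaining ones lower in Smc3-cKO included Zfp366 and Cadm1, which dendritic cells express, and Themis, a T cell gene. The dendritic cell list stood at 84.1 and 54.3 CPM in Smc3-cKO, against 166 and 140 CPM in Smc3-WT. Of the cells, 17 and 8 in Smc3-cKO and 17 and 13 in Smc3-WT had at least 2 of its UMIs. Of its 9 genes 5 were tested, all 5 below 0 with a median of -1.03. Whether cells or RNA of that kind take part in these differences was not tested.

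Finally, the genotype difference in cycling B cells was set against that in non-cycling B cells of the same libraries, with the library as a block. Of 13277 genes tested with edgeR's quasi-likelihood F test, 0 were called higher (0.0%) and 0 lower (0.0%), and 320 (2.41%) had an unadjusted p under 0.05; no other tool was run on it. The count depended on which libraries were used, since leaving out replicate 1 or 2 of Smc3-cKO gave 131 or 13 calls, and leaving out replicate 1 or 2 of Smc3-WT gave 8 or 225. Nr3c2 had a log2 difference of -5.30 (SE 0.89), since its level in non-cycling cells was 25.4 and 27.9 CPM in Smc3-cKO and 25.6 and 24.5 CPM in Smc3-WT. Slit3 had a difference of -2.60 (SE 0.48), with 7.82 and 10.3 CPM in non-cycling cells of Smc3-cKO and 7.19 and 11.2 CPM in those of Smc3-WT. Kif15, a spindle motor, was at 1.07 (SE 0.32), with 320 and 282 CPM in cycling cells of Smc3-cKO and 247 and 250 CPM in those of Smc3-WT, and with 9.13 CPM in the non-cycling cells of Smc3-WT replicate 1 against 3.27 to 4.49 CPM in those of the other libraries. For Smc3 the difference was 0.17 (SE 0.22).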

How the data were processed

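The 4 single-cell libraries of the series were used, and its other 26 samples were not analysed here. The deposited values are raw UMI counts per gene and barcode; Cell Ranger 7.0.0 made them, per the file headers, against mm10, per the submitters' processing notes. Depth was 40367056 to 51299056 UMIs per library. Cells were selected as described, and sums of their UMIs, 1 for each library and class of cells, were tested with edgeR 4.0.16 (filterByExpr, TMM, quasi-likelihood F test, Benjamini-Hochberg, threshold 0.05; limma 3.58.1, R 4.3.3), after a test on simulated data. DESeq2 1.42.0 was an alternative. CPM are of the summed counts without TMM. Shares of libraries were compared with exact permutation tests. Doublets were called with Scrublet in scanpy 1.11.5, which marked 4.05% and 6.41% of cells in Smc3-cKO and 1.03% and 5.72% in Smc3-WT, against 7.26%, 11.3%, 12.9% and 11.5% expected, so doublets remain; they were left out only as an alternative. Clusters of the selected cells used 2000 variable genes, 20 components, 15 neighbours and Leiden resolution 1. Named genes are members of the lists, the 20 highest and 15 lowest cycling ratios, and, where fewer than 10 genes passed, the 6 smallest p in each direction. Promoters are from RefSeq. The cells and lists were chosen with earlier results of these data known.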

Additional observations from a re-analysis of the deposited data

How the results depend on the processing

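No gene was called by genotype with other size factors, with any library left out, with doublets, low cycle sums, high mitochondrial shares or cells with markers of another type left out, or with equal cell numbers; the count was 97 with no filter on low counts and 1 with DESeq2. With the replicate number as a block it was 177 (8 rose, 169 fell). The labels do not say that the numbers mark a shared batch, so the numbers were not taken to pair the libraries. Deviations from the genotype means correlated at 0.628 between libraries of the same number, necessarily the same for both with 2 pairs. Replicates 1 and 2 thus differed in a similar direction in both genotypes. For the difference from non-cycling B cells the count was 43 with no filter, 4 without cells with markers of another type, 2 without cells with erythroid markers (added after seeing the data), and 8 to 225 with a library left out. The share of cycling B cells among kept cells differed by 0.0672 percentage points (Smc3-cKO minus Smc3-WT), by the same with the replicate block, by -0.00226 after thinning, by -0.0516 at up to 5% mitochondrial UMIs, and by -0.487 to 0.621 with a library left out. Among B lineage cells the difference was 0.0883, with -0.540 at up to 5% mitochondrial UMIs and -0.923 to 1.10 with a library left out. No cause was tested.

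Of 24 genes named by genotype 18 kept the sign of their log2 change under the alternatives in which they passed the count filter, and 6 did not. Low genes such as Cfap77 and Shfl were filtered out of several. Plcb4, Ccser1, Nr3c2 and Themis were filtered out by genotype when cells with markers of another type were left out, so their sign is not known there. With no filter on low counts they passed, with edgeR adjusted p of 5.62e-05, 1.94e-05, 0.00105 and 4.57e-07 in that order. With the replicate block the edgeR adjusted p were 0.000135, 0.000237, 0.0019 and 0.000111. Of the 24 genes, 9 passed under at least 1 alternative. With markers of another type left out, Cd79a was at -0.10, Ms4a1 at -0.23 and Cdk1 at -0.0807, and Cdk1 was at -0.30 without erythroid markers and at -0.00413 with a cycle sum of at least 5. With equal cell numbers Cd79a was at -0.13, Ms4a1 at -0.00396 and Ccnb2 at 0.20. Ccnb2 was at 0.00211 with DESeq2, at 0.00254 with its size factors alone, at 0.0355 with no filter and at 0.0349 without doublets. Jchain was at 0.14 with up to 5% mitochondrial UMIs and at 0.0476 with a cycle sum of at least 10. With a library left out the ranges were -0.17 to 0.21 for Cd79a, -0.10 to 0.28 for Ms4a1, -0.0938 to 0.19 for Cdk1, -0.34 to 0.27 for Ccnb2, -0.67 to 0.75 for Jchain and -0.36 to 1.30 for Stmn1. Of 12 genes named for the difference from non-cycling cells 9 kept their sign where they were tested. Kif15 was at -0.42 with equal cell numbers, and without cells with markers of another type Ccser1 was at 0.40 and Frmd4b at 7.55. At 451 cells, depth and 2 libraries per genotype limit what could be detected.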

Other observations

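Light chain use was counted as well. More UMIs of lambda than of kappa constant genes were found in 24.8% and 34.7% of cycling B cells in Smc3-cKO and in 17.4% and 39.3% in Smc3-WT, against 21.6% and 24.9% of the non-cycling B cells in Smc3-cKO and 16.3% and 25.1% of those in Smc3-WT. The share was higher in the cycling cells of all 4 libraries, by little in both replicates numbered 1. The call set no minimum count, and cells with equal or no light chain UMIs counted as not lambda. The cycling cells had the higher median depth in every library, and the part of depth in this difference was not tested. Cells that met every other limit but had at least 10 Jchain UMIs, and so stood outside the rule, numbered 15 and 2 in Smc3-cKO and 3 and 7 in Smc3-WT.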
